A study of Mus musculus with 20 samples.

Results

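The genes considered here are 36 genes of the interferon response and of MHC class I antigen presentation, in gut mesenchyme with and without Eed. They were taken by symbol from the count tables, where all 36 were found among 43280 genes. They comprise 4 transcription factors (Irf1, Irf7, Irf9, Stat2), 3 RNA sensors (Ifih1, Ddx58, Dhx58), Isg15, Usp18 and 3 IFIT genes, 4 OAS genes, 11 other antiviral effectors, 3 guanylate-binding proteins, and 6 genes of the MHC class I pathway (Psmb8, Psmb9, Tap1, B2m, H2-K1, H2-D1). Eed is a subunit of Polycomb Repressive Complex 2 (PRC2), which places the repressive mark H3K27me3 on histone H3.

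The embryonic libraries came from GFP+ cells sorted at E13.5, an embryonic day, from stomach or intestine. Controls were Bapx1-cre;Rosa26mTmG and knockouts were Eed fl/fl;Bapx1-cre;Rosa26mTmG, both labelled C57BL/6. The study itself gives mixed strain backgrounds, with the Bapx1-cre line as C57BL/6 and the Eed fl and Rosa26mTmG lines as mixed. Only knockouts, embryonic and adult, carried the Eed fl line, so strain background and genotype cannot be told apart. Bapx1-cre recombines in gut mesenchyme and the mTmG reporter turns a recombined cell green, so both genotypes carried Cre and reporter. The adult libraries came from the small intestine of mice of about 10 weeks, in which a tamoxifen-inducible Cre driven by Pdgfrb marked stromal cells. The labels give these mice as WT and EED-KO, and the methods as Pdgfrb Cre-ERT2;Rosa26mTmG and Pdgfrb Cre-ERT2;Eed fl/fl;Rosa26mTmG, with villi scraped off before dissociation. Each genotype and organ had 2 RNA-seq libraries, 12 in all, and each embryonic condition also had 2 ATAC-seq libraries deposited as 1 pooled peak list. Libraries held between 30236159 and 39606157 gene counts in embryos and between 11404712 and 15903642 in adults.

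Interferons are secreted proteins that signal through surface receptors to STAT and IRF transcription factors, which bind short elements in promoters and raise many antiviral genes together. RNA sensors such as Ifih1 and Ddx58 (the genes of MDA5 and RIG-I) detect viral double-stranded RNA upstream of interferon production. MHC class I presents peptides cut by the proteasome, for which Psmb8 and Psmb9 encode the inducible catalytic subunits, Tap1 and Tap2 the peptide transporter, H2-K1 and H2-D1 the heavy chains and B2m the light chain. Embryonic tissues in general carry little MHC class I.

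Eed itself fell in both embryonic organs, from 38.1-41.5 CPM (counts scaled to a common library size) in the 4 control libraries to 7.40-11.5 CPM in the 4 knockouts. Its log2 change was -2.11 ± 0.21 (SE) in stomach and -2.02 ± 0.21 in intestine (edgeR adjusted p = 0.00175 and 0.00464). In adults it stood at 29.7 and 33.4 CPM in control and 25.7 and 25.0 CPM in the libraries labelled Eed KO, with a log2 change of -0.32 ± 0.21 that did not pass the test (edgeR adjusted p = 0.317). The adult label was therefore not borne out by the level of Eed in these counts, and those libraries are called by their label throughout. The study also reports how efficiently Eed was deleted in isolated pericryptal cells, those around the crypts, of such mice. That measurement was not repeated here. The counts cover the whole gene, so transcripts that lost only the floxed part still count. The embryonic counts cover the whole gene too. The part of this in the adult level was not tested. CPM here and below are scaled by the TMM method within a stage.

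In E13.5 control mesenchyme many of the 36 genes were scarcely transcribed, as the heat map of transcript levels shows. On a scale per gene length, as TPM (transcripts scaled to the same total in every library), B2m stood at 154, 175, 180 and 204 TPM in the 4 control libraries, and Bst2 and Ifit2 at 12.6-33.1 TPM. At the other end, Ifit1, Oas3, Mx1 and Xaf1 stayed under 10 counts in every embryonic library. Because too few reads covered Isg15, Ifit1, Ifit3, Oas2, Oas3, Mx1 and Xaf1, these 7 genes did not enter the embryonic tests, which took 16218 genes and 29 of the 36. Genes such as Psmb8 and Psmb9 passed this filter only through their knockout libraries, so the counts over the 29 genes are a description.

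**Figure D1:**
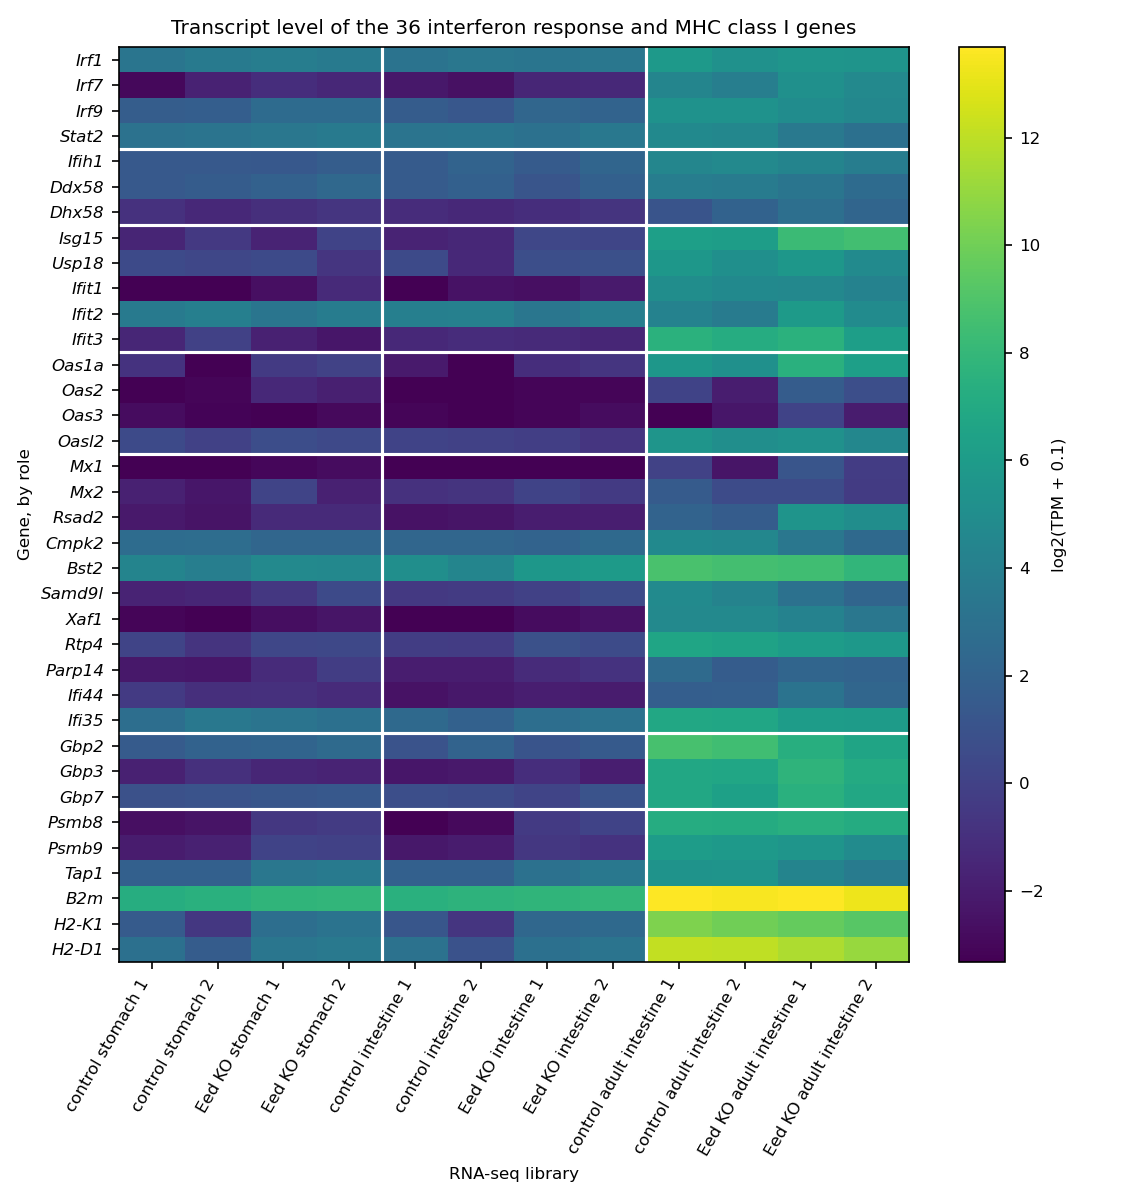
Heat map of log2(TPM + 0.1), where TPM is a level per gene length scaled to the same total in every library, for the 36 genes (rows, by role, split by white lines) in the 12 libraries (columns). The 8 embryonic columns are darker than the 4 adult ones for nearly every gene, and B2m is the brightest row in both.

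None of 21 interferon genes (type I, II and III ligands) had a single count in any of the 8 embryonic libraries. A count of 0 allows up to 0.0758-0.0992 CPM per library (3 counts of the total, counting error only). The receptors and signal carriers were transcribed, and 12 of 12 genes of that list were tested. Ifnlr1, the specific chain of the type III interferon receptor, was the only one called in either organ, at 1.25 and 1.12 CPM in control and 5.79 and 8.09 CPM in knockout stomach. Its log2 change was 2.55 ± 0.25 in stomach and 1.58 ± 0.25 in intestine (edgeR adjusted p = 0.00181 and 0.0207).

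Loss of Eed in embryonic stomach was accompanied by higher levels of the peptide-processing genes Psmb8, Psmb9 and Tap1 and of 2 antiviral effectors, Parp14 and Samd9l. These 5 of 29 genes were called higher (adjusted p under 0.05 and log2 change above 1), against 4.84% of all genes tested. None was called lower, where 0.808% of all genes were. Psmb8 and Psmb9 entered the tests only through their knockout libraries, so the count called higher is a description. At an unadjusted p under 0.05, 11 were higher and 1, Cmpk2, was lower. For counts at an unadjusted p, here and below, no share over all genes was computed. DESeq2 called 5 of 31 genes higher and 0 lower, where it called 865 of all 17496 genes higher and 161 lower. Counting at the adjusted p alone added Irf9, a subunit of the ISGF3 factor, for 6 of 29 against 5.96% of all genes. The median log2 change was 0.50 over the 29 genes and 0.00 over all genes.

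In embryonic intestine the called genes were Psmb8, Psmb9 and Tap1, 3 of 29, against 2.38% of all genes. This count is a description as well, since Psmb8 and Psmb9 entered only through knockout libraries. Of the 29, none was called lower, against 0.228%, with 9 higher and 0 lower at an unadjusted p under 0.05. DESeq2 called 3 of 31 genes higher and 0 lower, where it called 606 of all 17004 genes higher and 55 lower. The median log2 change was 0.74 against 0.01 over all genes. Both knockout libraries lay above both controls for 18 of 29 genes in stomach and 19 of 29 in intestine, where 27.7% and 21.8% of all genes did. With 2 libraries a group, an exact permutation test of one gene cannot go below p = 0.333.

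**Figure D2:**
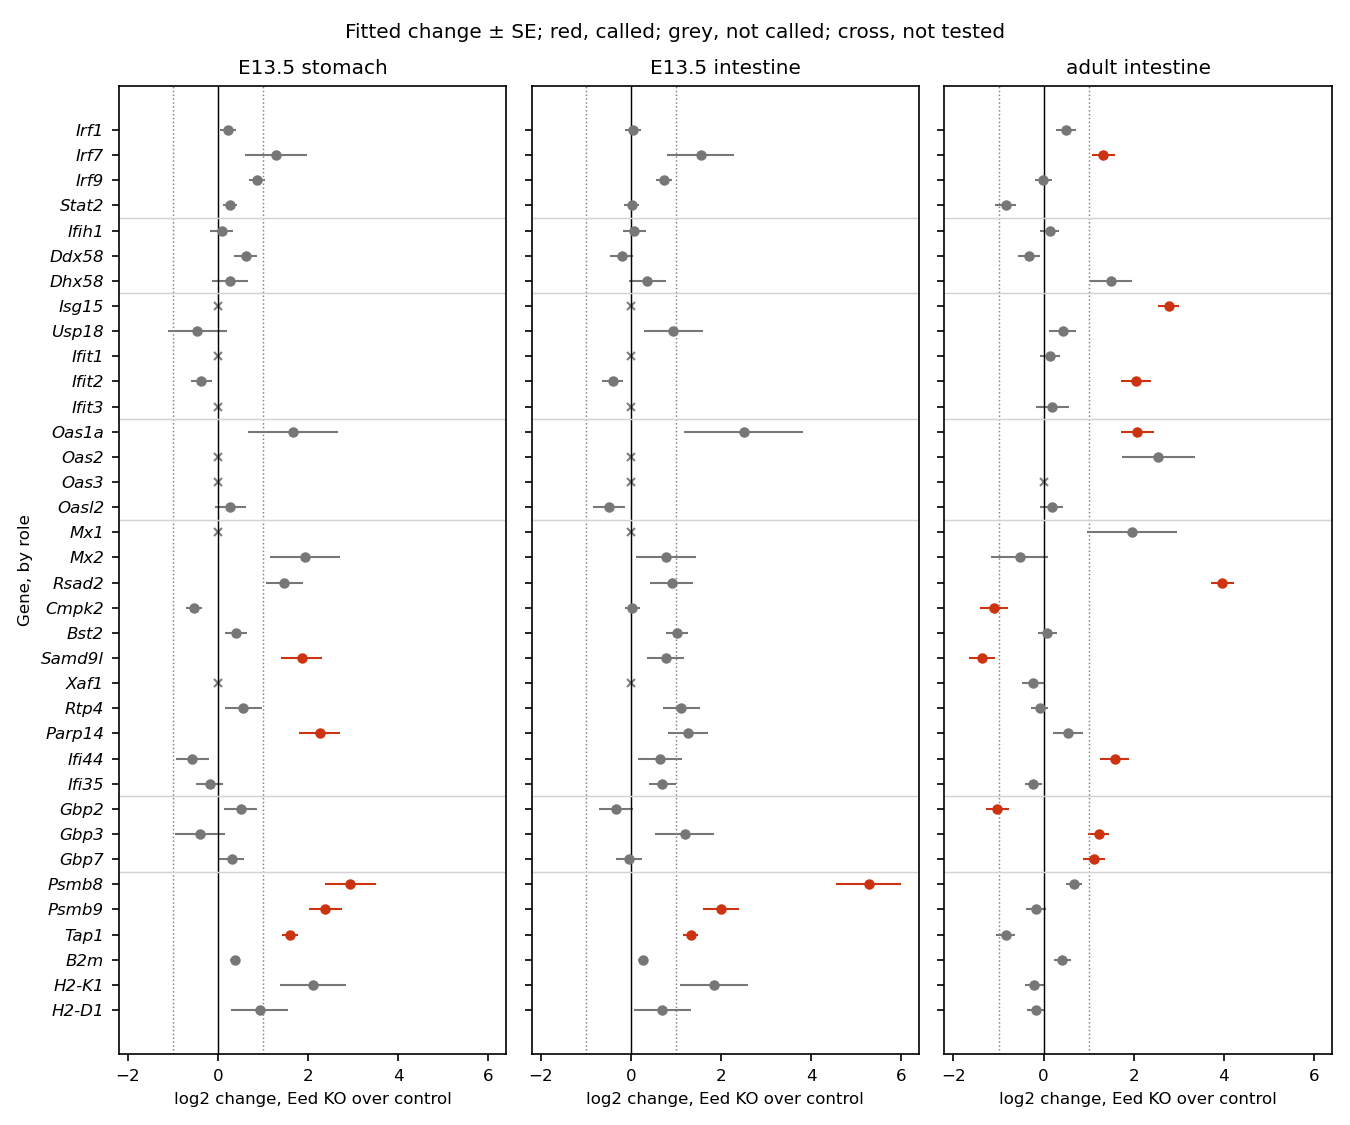
Fitted log2 change of each gene, Eed KO over control, with its SE, in E13.5 stomach, E13.5 intestine and adult intestine; red points were called, grey points were not, and crosses at 0 mark genes that were not tested. In both embryonic panels the red points include Psmb8, Psmb9 and Tap1, and in the adult panel none of these is red. The position of Psmb8 in intestine rests on 1 control count.

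Tap1, which encodes a subunit of the transporter that carries peptides into the endoplasmic reticulum, had the smallest SE among the called genes. Its levels were 6.58 and 6.43 CPM in control and 18.2 and 21.1 CPM in knockout stomach, and 6.83 and 6.63 CPM in control and 14.5 and 19.4 CPM in knockout intestine. Control libraries of both organs lay within 0.5 CPM of each other and far below every knockout library. The log2 change was 1.60 ± 0.17 in stomach and 1.33 ± 0.17 in intestine (edgeR adjusted p = 0.0024 and 0.00972).

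Psmb9, the inducible catalytic subunit that replaces a constitutive one in the immunoproteasome, was at 0.174 and 0.229 CPM in control and 1.15 and 0.987 CPM in knockout stomach. In intestine it was at 0.140 and 0.168 CPM in control and 0.712 and 0.542 CPM in knockout. The groups did not overlap in either organ, at counts between 5 and 43 per library. The log2 change was 2.38 ± 0.36 in stomach and 2.01 ± 0.40 in intestine (edgeR adjusted p = 0.00984 and 0.0459).

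Psmb8, the other immunoproteasome subunit of the same locus, was all but silent in controls. Stomach libraries held 2 and 3 counts in control and 19 and 21 in knockout, and intestinal libraries 0 and 1 in control and 23 and 30 in knockout. In stomach the log2 change was 2.94 ± 0.56 (edgeR adjusted p = 0.0221). In intestine the gene was called as well (edgeR adjusted p = 0.0119), with a ratio of summed counts, scaled for depth, of 47.45 and a 95% exact interval of 8.16 to 1909 for counting error alone. Even the knockout libraries stayed under 1 CPM.

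**Figure D3:**
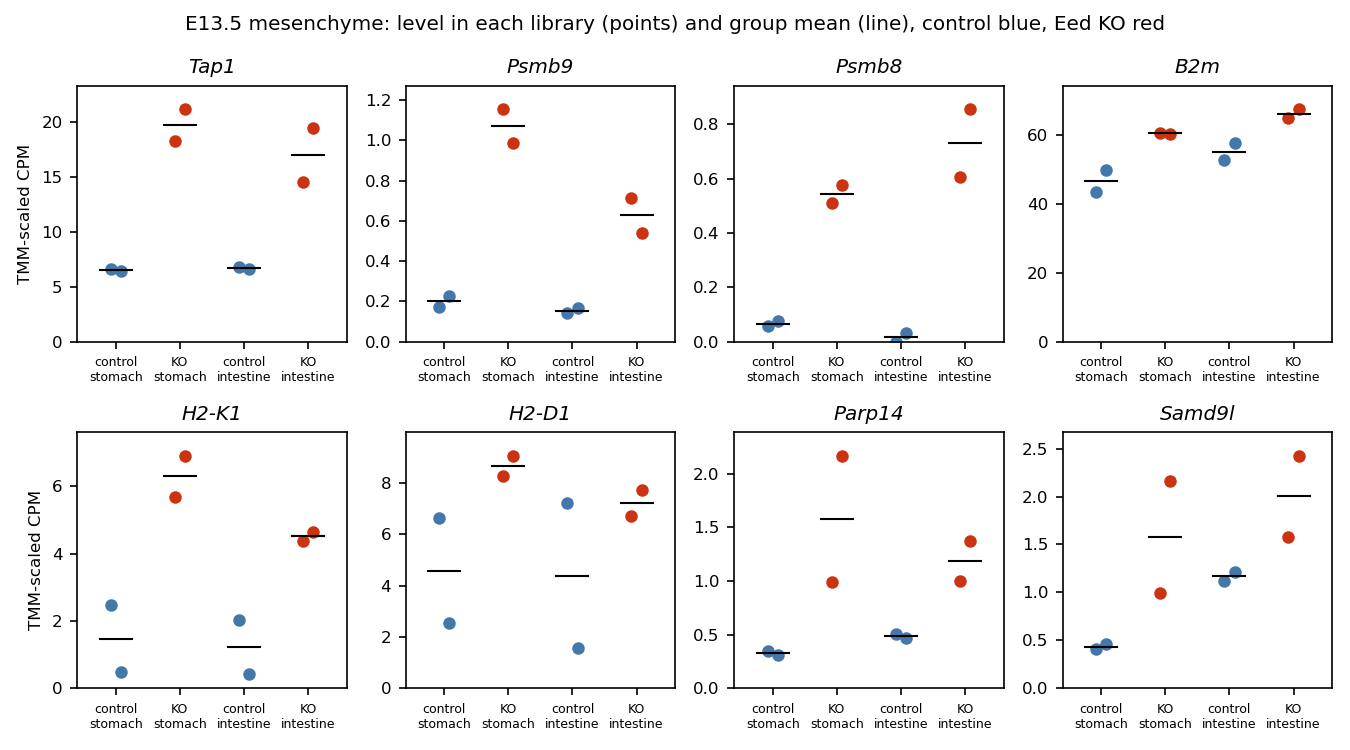
TMM-scaled CPM of 8 genes in each E13.5 library (points) with the mean of each group of 2 (line), control in blue and Eed KO in red; each axis starts at 0. The groups do not overlap for Tap1, Psmb9 and Psmb8, whereas the control points of H2-K1 and H2-D1 lie far apart.

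The heavy-chain genes behaved less regularly. H2-K1 was at 2.46 and 0.484 CPM in control and 5.69 and 6.91 CPM in knockout stomach, and at 2.02 and 0.437 CPM in control and 4.38 and 4.65 CPM in knockout intestine. Every knockout library lay above every control, but the 2 controls of an organ differed so much that neither change passed the test, at 2.11 ± 0.74 and 1.84 ± 0.75 on the log2 scale (edgeR adjusted p = 0.139 and 0.32). H2-D1 followed the same split, at 6.61 and 2.52 CPM in control stomach and 7.19 and 1.58 CPM in control intestine, with 6.70-9.05 CPM in the 4 knockouts. Its changes were 0.93 ± 0.63 and 0.70 ± 0.64 (edgeR adjusted p = 0.435 and 0.786).

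In both organs it was control replicate 2 that was low in these genes. Ranked by the size of the difference between control replicates, H2-K1 stood 26th and H2-D1 56th of 13156 genes in stomach and 18th and 11th of 12961 in intestine. The classical heavy-chain genes resemble each other and the Q and T genes closely, so reads may be shared among them and their single-gene values are uncertain. B2m, the shared light chain on another chromosome, had no such split. It was at 43.4, 49.7, 52.6 and 57.6 CPM in the 4 controls, and stood at 60.5, 60.3, 64.8 and 67.3 CPM in the 4 knockouts, above all controls. Its log2 change was 0.38 ± 0.10 in stomach and 0.26 ± 0.10 in intestine (edgeR adjusted p = 0.0755 and 0.308).

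Calls in the embryo rested on few libraries. In stomach, leaving out either control library left 1 of the 5 calls, which was Tap1, and leaving out knockout replicate 2 left 2, Tap1 and Psmb9. In intestine no call was left without either control library and 1, Tap1, without knockout replicate 2. Without both control libraries of replicate 2, a choice made after the data had been seen, no gene was called in either organ, and the log2 change of Tap1 was 1.58 in stomach and 1.32 in intestine. Every log2 change of the called genes kept its sign in these fits. With a single factor of unwanted variation estimated from spike-in RNA, 1 gene (Tap1) was still called higher in stomach and 0 in intestine. When spike-in totals set the scale, the typical gene moved by 2.39 in stomach and by 1.85 in intestine on the log2 scale, and 26 of 29 genes were then called higher in each organ, as were 15419 and 13664 of all 16218 genes. The changes given here are relative to the typical gene.

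Psmb8, Psmb9 and Tap1 are neighbours in the MHC region of chromosome 17. In the mm10 annotation Tap1 (plus strand, chr17:34187553-34197225) and Psmb9 (minus strand, chr17:34181988-34187764) start head to head, with models that overlap by 212 bases, and Psmb8 (plus strand, chr17:34197721-34201454) starts 10168 bases downstream of the Tap1 start. The window below, 250 bases before to 50 after the RefSeq start of Tap1, is shown because it also spans the 226 bases between the RefSeq starts of Tap1 and Psmb9, the interval from which both are read. The window of Psmb8 is shown beside it, with capitals for the only motif match found in either (RefSeq, GRCm38.p6, plus strand for both).
Tap1 and Psmb9, chr17:34187306-34187605: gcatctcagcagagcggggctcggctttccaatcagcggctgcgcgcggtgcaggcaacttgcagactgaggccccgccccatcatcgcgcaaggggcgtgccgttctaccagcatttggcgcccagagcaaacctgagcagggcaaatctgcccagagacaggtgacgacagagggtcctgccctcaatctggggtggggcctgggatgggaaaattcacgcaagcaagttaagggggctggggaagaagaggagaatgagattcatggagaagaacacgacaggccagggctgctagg
Psmb8, chr17:34197945-34198244: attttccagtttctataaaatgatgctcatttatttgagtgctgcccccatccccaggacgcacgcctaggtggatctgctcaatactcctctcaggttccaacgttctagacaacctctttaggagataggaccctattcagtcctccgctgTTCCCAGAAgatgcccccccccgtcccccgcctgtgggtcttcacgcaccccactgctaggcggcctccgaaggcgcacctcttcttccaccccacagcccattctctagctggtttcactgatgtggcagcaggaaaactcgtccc

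Motifs were searched on both strands of such windows of 300 bases. The ISRE, the element bound by ISGF3 and IRF factors, was searched as GAAANNGAAA and found in 3.44% of 32851 windows of all genes and in 14 of the 29 genes described here that had a window. The GAS, the gamma-interferon activated site, was searched as TTCNNNGAA and found in 8.3% of all windows and in 7 of the 29. The Tap1 and Psmb9 window held neither, and Psmb8 held a GAS match that begins 97 bases before its start. B2m had an ISRE match and H2-K1 had neither. A match is a description of letters and no evidence of binding, and 7 of the 36 genes had no window in the table.

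Tested neighbours were then listed within 100000 bases of the interval from Tap1 to Psmb8, after the values of these genes had been seen. Of 18 annotated models 9 could be tested, of which 6 were called higher in knockout stomach and 4 in knockout intestine, against 4.84% and 2.38% of all genes. These include Tap1, Psmb9 and Psmb8, which set the interval, so the neighbours called are 3 in stomach and 1 in intestine. Tap2, the partner subunit of Tap1, was at 0.754 and 1.096 CPM in control and 5.20 and 6.12 CPM in knockout stomach, a log2 change of 2.60 ± 0.28 (edgeR adjusted p = 0.0024). In intestine its change was 1.39 ± 0.26 (edgeR adjusted p = 0.038). The class II genes H2-DMb1 and H2-Ab1 were called in stomach, at 1.67 ± 0.33 and 2.90 ± 0.44 (edgeR adjusted p = 0.0241 and 0.00988). Brd2, a chromatin reader in the same interval, had 5314-6912 counts per library and a log2 change of 0.07 ± 0.10 in stomach and 0.05 ± 0.10 in intestine, neither of which passed.

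**Figure D4:**
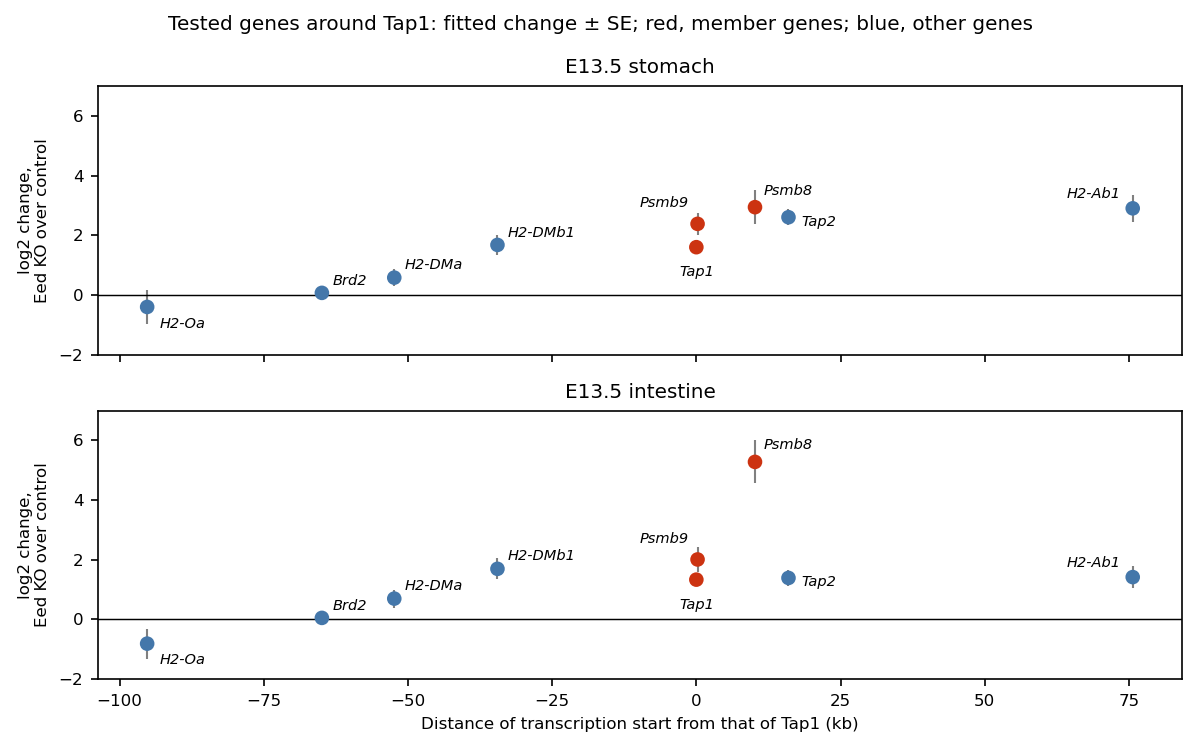
Fitted log2 change, Eed KO over control, with its SE, of the 9 tested genes against the distance (kb) of their transcription start from that of Tap1, in E13.5 stomach (top) and intestine (bottom); red points belong to the 36 genes and blue points do not. Values for Brd2 lie at about 0 in both organs, and those for Tap1, Psmb9, Psmb8 and Tap2 lie above 1.

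The chromatin at these promoters was accessible in control cells as well. A peak at the shared Tap1 and Psmb9 start had a fold enrichment of 9.15 in control stomach (chr17:34187069-34188124), 8.20 in knockout stomach, 9.83 in control intestine and 8.56 in knockout intestine. At the Psmb8 start the fold enrichment was 7.03, 6.01, 8.72 and 7.25 in the same order. In each organ the knockout list thus gave the lower fold enrichment at both sites, where the transcripts were higher. Other measures of the same peaks went otherwise. In stomach the -log10 q-value was 118.4 in control and 126.7 in knockout at the shared start, and 30.43 and 36.65 at Psmb8. In intestine it was lower in knockout at both. The share of bases within 1000 bp of the start covered by peaks was higher in knockout throughout, such as 47.58% and 62.52% at Psmb8 in stomach. There is 1 list per condition, made from pooled replicates, so no test between conditions was possible.

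Over all 36 genes a peak lay within 1000 bp of the transcription start of 31, 33, 31 and 31 in control stomach, knockout stomach, control intestine and knockout intestine. Over the 29 tested genes it was 27, 28, 28 and 28, where 88.3%, 88.9%, 87.8% and 88.9% of all tested genes had one. Genes that were nearly silent in RNA-seq had peaks too, such as Mx1 with a fold enrichment of 4.46 in control stomach and Oas1a with 5.93. Dhx58, Isg15 and Oas3 had no peak in any list, and Ifit3, Oas2 and Samd9l had one in some lists only. Samd9l lacked a peak in control stomach and had one of 3.49 in knockout stomach.

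Parp14, a mono-ADP-ribosyltransferase induced by interferon, was at 0.348 and 0.306 CPM in control and 0.993 and 2.17 CPM in knockout stomach. Its log2 change was 2.26 ± 0.45 (edgeR adjusted p = 0.0249). In intestine it was at 0.506 and 0.471 CPM in control and 1.00 and 1.37 CPM in knockout, a change of 1.27 ± 0.44 that did not pass (edgeR adjusted p = 0.229) and was the largest of the effector genes there. Samd9l, an antiviral restriction factor, was at 0.406 and 0.459 CPM in control and 0.993 and 2.17 CPM in knockout stomach, a change of 1.86 ± 0.45 (edgeR adjusted p = 0.0481). In intestine its change was 0.78 ± 0.41 (edgeR adjusted p = 0.49). For both genes knockout replicate 2 was the higher library and no knockout library overlapped the controls. Their counts were equal in the knockout stomach libraries, at 37 and 79 for each gene.

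The transcription factors, sensors, Isg15 and OAS genes were not called in the embryo. Irf9 alone of these passed the adjusted p, in stomach, at 5.54 and 5.74 CPM in control and 10.3 and 10.2 CPM in knockout stomach (log2 change 0.86 ± 0.18, edgeR adjusted p = 0.0269, under the fold threshold). Irf7, which amplifies interferon production, had 1 to 13 counts per library and changes of 1.28 ± 0.69 in stomach and 1.55 ± 0.75 in intestine (edgeR adjusted p = 0.321 and 0.439). Isg15, a ubiquitin-like modifier, had 2 and 6 counts in control and 2 and 8 in knockout stomach, and 2 and 2 in control and 11 and 9 in knockout intestine. Rsad2 (viperin) had 6 and 5 counts in control and 16 and 15 in knockout stomach, a change of 1.47 ± 0.41 (edgeR adjusted p = 0.0758).

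Oas1a, a sensor that makes oligoadenylates, had 10 and 0 counts in control and 14 and 19 in knockout stomach. In intestine it had 3 and 0 in control and 9 and 11 in knockout, a depth-scaled ratio of 5.97 with a 95% exact interval of 1.77 to 31.4 for counting error. Neither change was called (edgeR adjusted p = 0.372 and 0.496). Oas2 had 0 and 1 counts in control and 15 and 9 in knockout stomach but 1 and 1 in knockout intestine, too few for the filter. Of the RNA sensors the largest changes were Ddx58 in stomach at 0.61 ± 0.26 and Dhx58 in intestine at 0.37 ± 0.41 (edgeR adjusted p = 0.22 and 0.845). Usp18, which removes Isg15 from proteins, changed by -0.46 ± 0.65 and 0.94 ± 0.65, and among guanylate-binding proteins Gbp2 changed by 0.50 ± 0.36 in stomach and Gbp3 by 1.20 ± 0.65 in intestine, with edgeR adjusted p = 0.724, 0.654, 0.457 and 0.514.

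Genes of the same pathways outside the 36 were also counted. Of 58 other interferon-stimulated genes tested, 4 rose and 2 fell in knockout stomach, and 2 rose and 1 fell in intestine, where 4.84% and 0.808% of all genes rose and fell in stomach and 2.38% and 0.228% in intestine, with medians of 0.09 and 0.02. Zc3hav1, the zinc-finger antiviral protein ZAP, was the largest gain, at 2.99 and 3.54 CPM in control and 21.5 and 28.0 CPM in knockout stomach (log2 change 2.92 ± 0.23, edgeR adjusted p = 0.000771) and 2.74 ± 0.24 in intestine (edgeR adjusted p = 0.00254). Slfn5 changed by 2.87 ± 0.48 and 2.48 ± 0.50 (edgeR adjusted p = 0.0141 and 0.0473). Trim12a, a TRIM family gene with close copies next to it, fell from 2.03 and 1.30 to 0.11 and 0.03 CPM in stomach, a log2 change of -4.55 ± 0.53, and by 3.69 on the log2 scale in intestine (edgeR adjusted p = 0.00331 and 0.0117).

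Of 22 other MHC class I pathway genes, 3 rose in each organ, with medians of 0.06 and 0.13 (edgeR). These were Tap2, H2-Q6 and H2-T23 in stomach and Tap2, H2-Q6 and H2-Q7 in intestine. The non-classical H2-Q6 changed by 1.73 ± 0.36 and 2.24 ± 0.36 (edgeR adjusted p = 0.0287 and 0.0222), with the same doubt over shared reads as for H2-K1. Of 19 nucleic acid sensing genes 1 rose in each organ, the kinase gene Ikbke in stomach (1.07 ± 0.18, edgeR adjusted p = 0.0154) and Mb21d1, the gene of cGAS, in intestine (1.28 ± 0.16, edgeR adjusted p = 0.00954).

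Some markers of other cells moved with genotype in the embryo, not all in the same direction. Of 12 endothelial markers 7 were called higher in each organ, and their summed level rose from 26.9-28.1 to 44.1-70.2 CPM in stomach and from 25.45-30.6 to 74.35-76.3 CPM in intestine. The 5 MHC class II markers summed to 0.493-0.688 CPM in control and 2.66-2.85 CPM in knockout stomach, where H2-Ab1 was called, and to 1.405-1.885 and 3.11-4.88 CPM in intestine. The glial marker S100b was called higher in stomach (2.24 ± 0.35, edgeR adjusted p = 0.0106). The 7 smooth muscle markers, none called in either organ, summed to 2922-3035 CPM in control and 1884-2144 CPM in knockout stomach. In intestine they summed to 2824-4142 CPM in control and 3321-5670 CPM in knockout. Within stomach Des, Myh11 and Myocd had positive changes and Acta2, Tagln, Cnn1 and Actg2 negative ones. The 17 macrophage and leukocyte markers in the tables summed to 10.7-12.03 CPM in control and 10.2-14.4 CPM in knockout stomach, and to 16.8-18.5 and 14.5-15.1 CPM in intestine. Within that list the stomach values went both ways. Lyz2 was called lower (-1.08 ± 0.21, edgeR adjusted p = 0.023). Csf1r and Cx3cr1 were at 2.74 ± 0.72 and 3.43 ± 0.88 without passing (edgeR adjusted p = 0.0626 and 0.0591). Cd68, Cd14 and Laptm5 were at 0.98, 1.39 and 1.46, and Aif1 and Coro1a at -0.54 and -0.14, none of them passing. The part of these markers in the embryonic results was not tested. Ptprc (CD45), the defining leukocyte marker, had 0 counts in all 4 stomach libraries but was detected in intestine of both genotypes. Tyrobp and Cd53 had 0 counts in control stomach and were detected in knockout stomach. The T cell marker Cd3e had 0 counts in all 8 libraries. In these bulk libraries fewer cells of a type and less RNA per cell cannot be told apart. The 10 mesenchymal markers summed to 13680-25200 CPM in the embryonic libraries, which does not measure the purity of the sort.

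The response to Eed loss in the 2 organs was not found to differ for any of the 29 genes. In the interaction of organ and genotype, edgeR called 0 of 29 at an adjusted p under 0.2, against 0.191% of all genes higher and 0.271% lower, DESeq2 also called 0, and 1 (Cmpk2) was under an unadjusted p of 0.05. Tap1 differed by -0.26 ± 0.24 on the log2 scale (intestine minus stomach, edgeR adjusted p = 1).

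Between organs of the same genotype only single genes differed. Ifi44, a gene of the response with a poorly known role, was at 1.30 and 0.790 CPM in control stomach and 0.169 and 0.236 CPM in control intestine, a log2 change of -2.36 ± 0.44 (edgeR adjusted p = 0.0187). It was the 1 gene of 29 called lower in control intestine, against 3.39% of all genes, and 0 were called higher, against 1.68% (2 at an unadjusted p under 0.05, and 0 by DESeq2). Bst2 (tetherin), which holds budding virus at the cell surface, was at 6.36 and 5.65 CPM in knockout stomach and 13.48 and 14.8 CPM in knockout intestine. It was the 1 gene of 29 called higher in knockout intestine (1.24 ± 0.25, edgeR adjusted p = 0.0279), against 1.46% of all genes, and 0 were called lower, against 2.94% (4 at an unadjusted p under 0.05, and 0 by DESeq2). Neither call held when spike-in totals set the scale. Leaving out single libraries also ended both: Ifi44 was lost without control stomach replicate 1 or either control intestine library, and Bst2 without any of the 4.

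In the adult intestine the libraries labelled Eed KO showed another set of genes. Of 35 tested genes 8 were called higher, against 12.3% of all genes, and 3 lower, against 7.23%. At the adjusted p alone these were 9, against 14.1%, and 5, against 9.39%. The genes that rose were Rsad2, Isg15, Oas1a, Ifit2, Ifi44, Irf7, Gbp3 and Gbp7, and those that fell were Samd9l, Cmpk2 and Gbp2. The median log2 change was 0.18 against 0.00 over all genes. Both labelled libraries lay above both controls for 15 of 35, where 32.3% of all genes did. They lay below both for 8, for which no share over all genes was computed. When spike-in totals set the scale the typical gene moved by -0.42 and the calls were 5 higher and 2 lower, as were 1154 and 1321 of all 15039 genes.

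The same libraries held far more RNA of macrophages. All 17 macrophage and leukocyte markers were called higher, their summed level rising from 936-1339 CPM in control to 26350-26870 CPM, and all 5 MHC class II markers rose from 3253-4608 to 122400-143900 CPM. Of 9 mesenchymal markers tested 5 fell (Pdgfra, Col1a1, Col1a2, Col3a1, Foxf2), their list summing to 22370-24810 CPM in control and 12290-13050 CPM in the labelled libraries. The 12 lymphocyte markers summed to 2132-2331 CPM in control and 579-618 CPM in the labelled libraries, nearly all of it from the plasma cell gene Igj, at 2071 and 2269 against 477 and 522 CPM. Of that list Igj and Cd79a fell and Cd79b rose. Of 10 immediate early genes 4 rose, Atf3 (2.71 ± 0.21), Fosb, Nr4a1 and Dusp1, and of 7 smooth muscle markers 3 rose. The part of these markers in the adult results was not tested.

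Rsad2, an enzyme that makes a chain-terminating nucleotide, gave the largest change, from 6.95 and 5.18 CPM in control to 105 and 85.5 CPM. Isg15 went from 22.7 and 21.1 CPM to 126 and 174 CPM. For both genes each labelled library lay at least 5 times above each control. The log2 changes were 3.97 ± 0.25 and 2.78 ± 0.23 (edgeR adjusted p = 0.000142 and 0.000406). Their promoter windows are shown for contrast with that of Tap1, with ISRE matches in capitals (RefSeq, GRCm38.p6, minus strand for both). Rsad2 has 1 match, which begins 120 bases before its start, and Isg15 has 3 that overlap.
Rsad2, chr12:26456403-26456702: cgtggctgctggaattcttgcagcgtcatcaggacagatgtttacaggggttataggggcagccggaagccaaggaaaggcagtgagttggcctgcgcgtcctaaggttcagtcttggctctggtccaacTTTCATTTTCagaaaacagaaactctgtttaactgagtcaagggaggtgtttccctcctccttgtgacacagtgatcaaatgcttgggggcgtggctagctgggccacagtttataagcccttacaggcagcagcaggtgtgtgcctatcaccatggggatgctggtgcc
Isg15, chr4:156200769-156201068: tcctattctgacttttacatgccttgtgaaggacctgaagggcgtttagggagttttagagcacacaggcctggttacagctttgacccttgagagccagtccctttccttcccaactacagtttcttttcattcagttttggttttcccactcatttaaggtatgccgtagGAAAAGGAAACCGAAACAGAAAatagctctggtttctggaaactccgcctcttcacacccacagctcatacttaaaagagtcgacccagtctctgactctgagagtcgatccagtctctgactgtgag

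Oas1a went from 37.2 and 28.2 CPM in control to 187 and 90.2 CPM, and Ifit2, which binds viral RNA, from 28.4 and 20.9 to 134 and 70.0 CPM. The labelled libraries differed about 2-fold from each other but lay above both controls. Their log2 changes were 2.08 ± 0.36 and 2.05 ± 0.34 (edgeR adjusted p = 0.00715 and 0.00614). Ifi44 went from 7.68 and 8.20 to 29.7 and 17.7 CPM and Irf7 from 24.9 and 18.2 to 61.3 and 46.9 CPM, with changes of 1.57 ± 0.33 and 1.33 ± 0.25 (edgeR adjusted p = 0.0142 and 0.0101).

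The guanylate-binding proteins, GTPases that attack the vacuoles of intracellular pathogens, moved in both directions. Gbp3 went from 145 and 135 CPM in control to 384 and 271 CPM, and Gbp7 from 247 and 180 to 528 and 399 CPM, while Gbp2 went from 414 and 349 to 225 and 150 CPM. No group overlapped with its control. The log2 changes were 1.23 ± 0.23, 1.12 ± 0.24 and -1.02 ± 0.25 (edgeR adjusted p = 0.0096, 0.0177 and 0.0258).

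Samd9l, which had risen in embryonic stomach, fell here from 57.7 and 41.5 to 23.6 and 15.0 CPM. Cmpk2, a mitochondrial nucleotide kinase whose gene lies beside Rsad2, went from 32.3 and 29.1 to 18.4 and 10.51 CPM. Their log2 changes were -1.37 ± 0.29 and -1.09 ± 0.31 (edgeR adjusted p = 0.0167 and 0.0431). Of the sensors Dhx58 had the largest change, 1.495 ± 0.46, and did not pass (edgeR adjusted p = 0.0561).

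**Figure D5:**
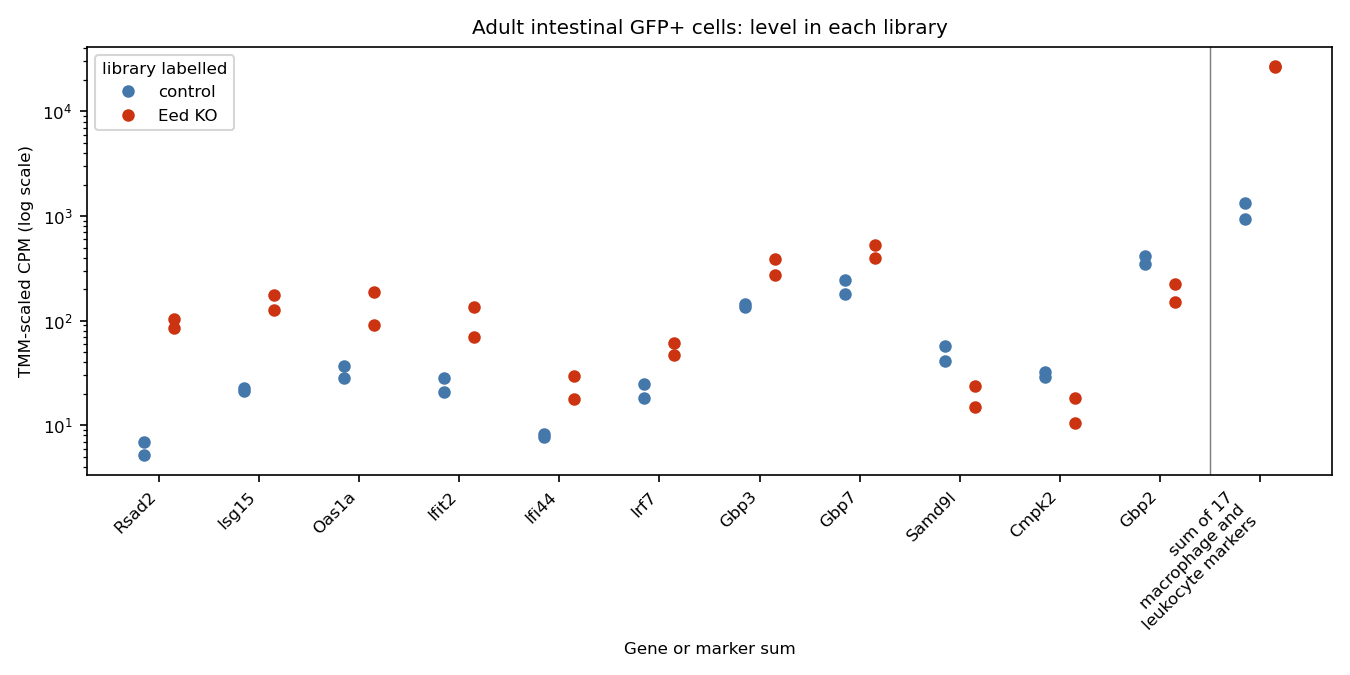
TMM-scaled CPM, on a log axis, of the 11 called genes in each adult library and, at the right, of the sum of 17 macrophage and leukocyte markers; control in blue, libraries labelled Eed KO in red. The marker sum lies at 936 and 1339 CPM in control and at 26350 and 26870 CPM in the labelled libraries.

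By edgeR none of the 6 MHC class I genes was called in adults, and 2, Tap1 and Psmb8, had an unadjusted p under 0.05. Tap1, at 88.0 and 97.5 CPM in control and 59.8 and 43.6 CPM in the labelled libraries, changed by -0.84 ± 0.22 (edgeR adjusted p = 0.0324, under the fold threshold). Psmb8 changed by 0.67 ± 0.18 (edgeR adjusted p = 0.0386, also under it). B2m, H2-K1, H2-D1 and Psmb9 changed by 0.42 ± 0.20, -0.20 ± 0.21, -0.17 ± 0.20 and -0.16 ± 0.22, with edgeR adjusted p = 0.173, 0.54, 0.57 and 0.639.

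Of the other lists in adults, 10 of 22 nucleic acid sensing genes rose, against 12.3% of all genes. The largest gains were those of Tlr7 (5.00 ± 0.61) and Tlr9 (3.93 ± 0.67), endosomal receptors for RNA and DNA, and of Aim2 (3.66 ± 0.38), with edgeR adjusted p = 0.00182, 0.00668 and 0.000862. Of 80 other interferon-stimulated genes 15 rose and 5 fell, against 12.3% and 7.23% of all genes. Slfn2 had the largest gain, 4.95 ± 0.26 (edgeR adjusted p = 0.000124), and the falls included the immunity-related GTPase genes Iigp1 (-1.84 ± 0.21), Tgtp1, Tgtp2 and Irgm2, as well as Trim12a (-4.002 ± 0.41), with edgeR adjusted p = 0.00124, 0.0405, 0.0184, 0.021 and 0.000857. Of 11 receptor and signalling genes Ifngr2 and Il10rb, both receptor chains, rose (1.22 ± 0.22 and 1.17 ± 0.18), with edgeR adjusted p = 0.00911 and 0.00459. Of 25 other MHC class I pathway genes 3 rose, H2-T24, H2-M2 and Cd1d1. The 21 interferon genes together had 9 counts in each control library and 10 and 16 in the labelled ones.

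Levels in the adult control intestine were far above those in the embryonic one. Of 35 tested genes 34 were called higher, against 32.3% of all genes, and 0 lower, against 30.1% (0 lower at an unadjusted p under 0.05 and 0 by DESeq2). The median log2 change was 6.27, and 0.07 over all genes. Isg15, Ifit1, Ifit3, Oas2, Mx1 and Xaf1, too low for the embryonic tests, entered this fit through the adult libraries. Such genes could hardly be called lower, so these counts and the median are a description. With spike-in totals as the scale the typical gene moved by -1.996, 27 of 35 genes were higher and 1 was lower, as were 2546 and 10094 of all 18170 genes. Ifit2 was the exception to the 34, with a change of 0.56 ± 0.33 (edgeR adjusted p = 0.153). The heavy chains H2-K1 and H2-D1 changed by 10.29 ± 0.62 and 10.32 ± 0.72, and Gbp3 by 10.48 ± 0.40 (edgeR adjusted p = 2.45e-06, 5.04e-06 and 5.23e-07).

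For genes without embryonic reads only bounds can be given. Xaf1, a pro-apoptotic gene, had 0 counts in both embryonic control libraries and 629 and 673 in the adult ones, at least 1326-fold higher against a floor of 3 counts over the group. Psmb8 had 0 and 1 counts against 2077 and 2223, and Ifit1 had 0 and 2 against 443 and 394, with depth-scaled ratios of 13140 and 1279 and 95% exact intervals of 2357 to 519000 and 352.8 to 10570. Stage, library kit, strandedness, Cre driver and sort cannot be told apart in this comparison, and the macrophage and lymphocyte markers, at 16.8-18.5 and 8.06-8.38 CPM in embryonic control intestine, summed to 936-1339 and 2132-2331 CPM in adult controls. Their part in the difference was not tested.

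The change with genotype label in intestine was called different between the stages for 6 of 35 genes. Stage, library kit, strandedness, Cre driver and sort cannot be told apart here, and Eed was not called lower in the adult libraries labelled Eed KO. In the interaction, Rsad2 and Ifit2, 2 of 35 and a share near the 5.78% of all genes, were called higher in adults, by 3.07 ± 0.57 and 2.45 ± 0.47. Psmb8, Tap1, Psmb9 and Samd9l were called lower, by -4.46 ± 0.65, -2.18 ± 0.31, -2.16 ± 0.44 and -2.15 ± 0.46, against 4.63% of all genes. The edgeR adjusted p were 0.013, 0.0147, 0.00519, 0.00438, 0.0189 and 0.0234. The change of Psmb8 rests on 1 embryonic control count. Leaving out either embryonic control library left neither higher call, and the lower calls then numbered 2 without control intestine replicate 2. Without the adult library labelled Eed KO replicate 1 there were 7 lower calls. With spike-in totals as the scale the typical gene moved by -2.27, 0 of 35 were called higher and 17 lower, as were 50 and 6673 of all 18170 genes.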

How the data were processed

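RNA-seq was done on 12 libraries and ATAC-seq peak lists were available for the 4 embryonic conditions. The authors aligned reads to the mouse genome (mm10) with STAR and made whole-number counts per gene with featureCounts on a GENCODE annotation, and the counts were deposited without normalization. ATAC-seq replicates were pooled by the authors before broad peaks were called with MACS2, and the deposited lists give each peak's fold enrichment and its −log10 q-value. Embryonic libraries came from a stranded poly(A) kit and adult ones from a low-input kit that does not mark strand. The strand setting of the counting is not given in the sources used here, so reads of overlapping genes such as Tap1 and Psmb9 may not be told apart. A count also covers reads shared by close copies only as the authors' counting allowed.

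Genes were tested with edgeR 4.0.16 (R 4.3.3, TMM scaling, quasi-likelihood test, Benjamini-Hochberg adjustment over all genes tested, low counts removed by filterByExpr), with 8 embryonic, 4 adult or 8 intestinal libraries in a fit. SEs are of the fitted log2 change. A gene was called at an adjusted p under 0.05 and a log2 change beyond 1 in size, and at an adjusted p under 0.2 in the interaction of organ and genotype. The common variation between replicates was 15.8% in the embryonic fit, 29.1% in the adult fit and 23.5% in the intestinal fit. The labels do not say how many animals made a library, and p-values measure only the spread between these libraries. Counting intervals and the limits set by a count of 0 (3 counts) cover counting error only. DESeq2 1.42.0, another scaling, no filter, a replicate block, spike-in totals, a factor of unwanted variation and leaving out each library were the alternatives. The tests were tested on simulated data with known changes.

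The 36 genes, the other lists and the markers were chosen with earlier results of these data known. Values are given in full for genes called in a genotype comparison (at most 12) or an organ or stage comparison (at most 6) and, where a role group had no called gene, for the one with the largest change. From each other pathway list up to 5 called genes with a mean of at least 1 CPM are named. Slfn5 in intestine, Irf9, Isg15, Oas2, Rsad2 and the heavy chains in the embryo, the neighbours of Tap1, single markers and the other interferon-stimulated genes that fell in adults were named after their values were seen. Promoter windows of 300 bases came from RefSeq (GRCm38.p6), for 29 of the 36 genes. Some genes of the other lists are not reported here.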

Additional observations from a re-analysis of the deposited data

Results flagged for a closer look

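The change with genotype in intestine differed between adult and embryo for 6 genes by the interaction of stage and genotype (edgeR quasi-likelihood test, adjusted p in the report). The difference, adult minus embryonic on the log2 scale, was 2.45 for Ifit2 and 3.07 for Rsad2. These were 2 of 35 genes tested, a share near the 5.78% of all genes called higher. The difference was -2.15 for Samd9l, -4.46 for Psmb8, -2.16 for Psmb9 and -2.18 for Tap1, where 4.63% of all genes were called lower. Stage, library kit, Cre driver and sort cannot be told apart here, Eed was not called lower in the adult libraries labelled Eed KO, and their macrophage markers summed to 26350-26870 CPM against 936-1339 CPM in control. The part of these in the 6 differences was not tested.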

How the results depend on the processing

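Over 297 recomputed log2 changes of the called genes, 220 kept their call, 77 kept only their direction and 0 reversed. In stomach the 5 higher calls became 26 with spike-in totals, 1 with 1 factor of unwanted variation (RUVg, which also gave 1 lower call), 1 to 4 on leaving out each library in turn, and 0 without both control libraries of replicate 2, an alternative chosen after seeing the data. In intestine the 3 higher calls became 5 with no filter, 26 with spike-in totals, 0 with 1 RUVg factor (which gave 1 lower call), 0 to 2 on leaving out each library, and 0 without both control libraries of replicate 2. Between control organs the 0 higher calls became 1 with no filter and 1 with the replicate block, and the 1 lower call became 0 with spike-in totals, 0 to 1 on leaving out each library and 0 without both control libraries of replicate 2. Between knockout organs the 1 higher call became 0 with spike-in totals and 0 on leaving out any library. In adults the 8 higher calls became 5 with spike-in totals and 5 to 9 on leaving out each library, the 3 lower calls became 0 to 5, and the median log2 change of 0.18 became -0.1585 with spike-in totals and between -0.06482 and 0.433 on leaving out each library, the lowest without the library labelled Eed KO replicate 1. Between stages, spike-in totals gave 1 lower call in place of 0. For the interaction of stage and genotype the 2 higher calls became 0 with spike-in totals and 0 to 2 on leaving out each library, and the 4 lower calls became 17 and 2 to 7. The causes were not tested. The replicate numbers are not said to pair the samples. The methods describe separating stomach and intestine of each animal, so libraries of the 2 organs may share animals. The main fit treated all libraries as independent. With the replicate block there were 6 higher calls in stomach, 4 in intestine and 9 in adults. Deviations of same-numbered embryonic libraries correlated at 0.10 to 0.71. The highest value was between knockout stomach and knockout intestine, and the control organs had 0.34. With at least 50% of the window covered by a peak, 14, 17, 14 and 17 of the 36 genes counted as accessible. The order is control stomach, knockout stomach, control intestine and knockout intestine. Of the 29 tested genes 14, 17, 14 and 16 did, where 50.7%, 56.2%, 48.9% and 53.6% of all tested genes did. At this depth, genes under 10 counts in every embryonic library could not be compared.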

Other observations

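Trim12a (chr7:104299894-104315466, mm10) fell in all 3 comparisons of genotype, by 4.55 on the log2 scale in E13.5 stomach, 3.69 in E13.5 intestine and 4.002 in adult intestine (edgeR adjusted p = 0.00331, 0.0117 and 0.000857). It lies 14.3 Mb from Eed on chromosome 7. Its level was 36.1 and 24.5 CPM in adult control and 2.51 and 1.31 CPM in the libraries labelled Eed KO, in which Eed itself was not called lower. Neighbouring copies of the gene may share its reads, and strain background cannot be told apart from genotype.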
